A study of Mus musculus with 6 samples.

Results

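The genes described here are 30 that repair DNA or halt the cell cycle when DNA is damaged, chosen by name. All 30 were found among the 38258 genes of the deposited RNA-seq table, and all 30 passed the filter on low values (10 normalized counts or more on average across the libraries). They comprise the BRCA1 and BRCA2 complexes with the nucleases of end resection, genes of strand exchange and of joint molecules, the Fanconi anemia genes, the mismatch recognition gene *Msh6*, and the sensors and kinases of the damage checkpoint.

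RNA came from newborn mice (postnatal day 0), from back-skin cells of the interfollicular epidermis sorted as EpCAM-positive, Sca1-positive and high for α6-integrin, a gate that enriches for epidermal progenitors. The 6 libraries were 3 labelled Control and 3 labelled Eed; Ring1a/b 3KO, with the genotype Eed -/- Ring1a-/- Ring1b-/- in the labels. Eed belongs to the core of Polycomb repressive complex 2, and Ring1a (*Ring1*) and Ring1b (*Rnf2*) give Polycomb repressive complex 1 its ubiquitin ligase activity. Both complexes keep developmental genes silent. The labels do not give the Cre driver, the exons deleted, the alleles that the controls carry, or whether each library came from its own pup, so the p-values measure the spread between libraries, some of which may be technical.

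Cells mend broken DNA most accurately by homologous recombination, in which the broken ends are resected, the single strands so exposed invade the sister chromatid, and that chromatid is used as the template. The Fanconi anemia proteins unhook crosslinks between DNA strands and hand the resulting break to the same machinery. The kinases ATM and ATR sense breaks and stalled forks and act through CHEK2 and CHEK1 to hold the cell cycle. Because recombination needs a sister chromatid, many of these genes are transcribed mainly in S and G2 phase, under E2F factors in cultured mammalian cells, and epidermal progenitors are among the dividing cells of the skin.

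The promoters are shown first because many of these genes share letters near their start sites. The part of these letters in the changes given below was not tested. RefSeq promoters (GRCm38.p6, 250 bases before to 50 after each start) were matched by symbol for 22 of the 30 genes, with 24 promoters in all. An E2F-type sequence (TTGGCGC, or in its place TTGCCGC, or with other middle letters TTCGCGC, or most often here TTCCCGC, each on either strand) stood in 16 of these 24 promoters (66.7%). It stood in 9.57% of all 32851 promoters of that length and in 14.2% of the promoters of genes tested. Of the 18 matches in member promoters, 12 were TTCCCGC, and 1 match overlapped an Sp1-type sequence. The promoters below are those of the 2 genes with the steepest falls and of 2 genes that did not pass the test. Capitals mark the E2F-type match, and each sequence runs 5′ to 3′ on the strand of its gene. They lie at chr6:126939538-126939837 on the minus strand (*Rad51ap1*), chr11:86201144-86201443 on the minus strand (*Brip1*), chr7:79392088-79392387 on the plus strand (*Fanci*) and chr17:87974800-87975099 on the plus strand (*Msh6*).
Rad51ap1: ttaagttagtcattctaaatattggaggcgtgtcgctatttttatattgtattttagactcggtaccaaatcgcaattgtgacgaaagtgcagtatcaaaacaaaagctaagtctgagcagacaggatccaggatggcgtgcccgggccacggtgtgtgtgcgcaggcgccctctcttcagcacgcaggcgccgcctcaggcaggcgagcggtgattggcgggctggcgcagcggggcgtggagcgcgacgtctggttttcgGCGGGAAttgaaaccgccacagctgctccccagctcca
Brip1: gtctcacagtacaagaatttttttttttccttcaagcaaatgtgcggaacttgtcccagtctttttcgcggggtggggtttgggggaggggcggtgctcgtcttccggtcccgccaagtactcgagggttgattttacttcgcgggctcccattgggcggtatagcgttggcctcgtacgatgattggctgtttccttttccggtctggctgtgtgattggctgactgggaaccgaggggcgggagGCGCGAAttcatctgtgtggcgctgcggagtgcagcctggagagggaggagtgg
Fanci: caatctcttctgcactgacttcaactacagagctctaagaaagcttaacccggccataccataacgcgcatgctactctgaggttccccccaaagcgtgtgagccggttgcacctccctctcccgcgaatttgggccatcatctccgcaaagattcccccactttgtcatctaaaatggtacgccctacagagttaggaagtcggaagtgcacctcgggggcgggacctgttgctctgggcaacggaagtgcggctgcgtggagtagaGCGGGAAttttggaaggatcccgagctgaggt
Msh6: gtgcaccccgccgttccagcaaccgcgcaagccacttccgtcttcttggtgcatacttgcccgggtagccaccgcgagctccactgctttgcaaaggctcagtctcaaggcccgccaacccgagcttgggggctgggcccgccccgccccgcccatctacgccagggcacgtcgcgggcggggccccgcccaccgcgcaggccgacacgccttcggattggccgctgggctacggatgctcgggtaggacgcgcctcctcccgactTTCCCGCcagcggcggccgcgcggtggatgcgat
Counting the start site as position 1, the match began at position 13 in *Rad51ap1*, 19 in *Fanci* and 17 in *Msh6*, each time with the letters TTCCCGC, and 4 bases before the start in *Brip1* with the letters TTCGCGC. In all of these but *Msh6* the letters lie on the opposite strand, so the sequence above shows their reverse complement. Genes that fell and genes that did not pass both carried it. By gene, it stood in the promoters of 10 of the 13 genes with a promoter that fell and in 5 of the 9 that did not pass. A CCAAT box (those letters on either strand) stood in 62.5% of the member promoters and 37.4% of all promoters. An Sp1-type sequence (GGGCGG) stood in 66.7% of member promoters, 35.7% of all promoters and 54.3% of those of genes tested. A CHR-type sequence (TTTGAA, or with other middle letters TTCGAA) stood in 2 of the 24 member promoters (8.33%), in 19.2% of all promoters and in 15.6% of those of genes tested. These matches are letters, not measured binding.

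**Figure D1:**
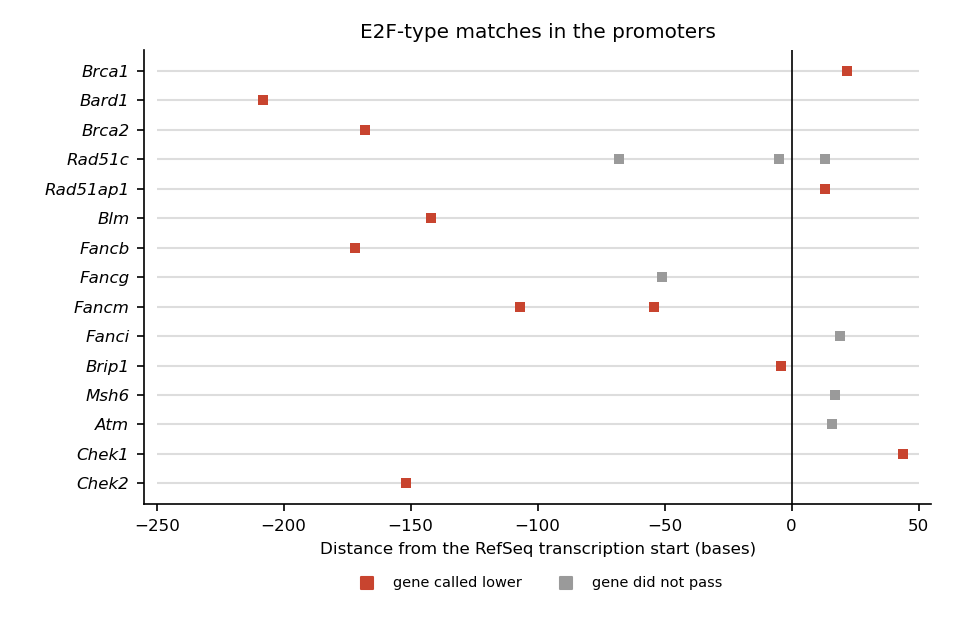
Distance in bases from the RefSeq start site (0) of each E2F-type match in the promoters of the 15 genes that hold one; red squares are genes called lower, grey squares genes that did not pass. Matches lie on both sides of the start, within 250 bases before and 50 after it.

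The labels were checked on the targeted genes. *Ring1* went against them, at 11.8, 8.72 and 23.1 normalized counts in controls and 67.7, 104 and 112 in libraries labelled triple knockout, which is higher (log2 change 2.70 ± 0.40, limma adjusted p = 0.000759). *Eed* was lower (log2 change −0.82 ± 0.21, limma adjusted p = 0.0144) and *Rnf2* did not pass (−0.24 ± 0.22, adjusted p = 0.417). The *Eed* call was lost without control replicate 2 (adjusted p = 0.0523) and without labelled knockout replicate 1 (0.0615) or 3 (0.0543). The libraries labelled triple knockout are called labelled knockouts below, and each direction is theirs relative to the controls. Library totals of deposited normalized counts ranged from 21896285 to 29805729. The basal keratinocyte genes checked were all present, with 9 of 11 lower and 2 higher in labelled knockouts (*Epcam* and *Ly6a*, which encode proteins of the sorting gate). *Itga6*, which encodes the α6-integrin of the same gate, fell from a mean of 23785 to 7670 (log2 change −1.60 ± 0.17, limma adjusted p = 0.000133). Ribosomal RNA genes held 22.5% to 36.6% of the total, the most in control 3. Summed fibroblast markers (8 genes) ranged from 21979 to 50287 normalized counts in controls, highest in control 3, and from 10012 to 15760 in labelled knockouts. Of these 8, *Postn* and *Dpt* fell and 6 did not pass, and without *Postn* the sums overlapped (8190, 12655 and 30746 against 9384, 13290 and 14620). Summed suprabasal keratinocyte markers (10 genes) ranged from 43811 to 62574 and from 28198 to 29662. *Krt1*, *Krt10* and *Flg* fell, but 4 of the 10 rose (*Krtdap*, *Sbsn*, *Ivl* and *Tgm1*) and the median log2 change was 0.31. Summed melanocyte markers (8 genes) ranged from 406 to 579 and from 1241 to 1865, with *Mlana* at 0 in at least 1 library, and Merkel cell markers (9 genes) from 309.95 to 370.3 and from 2799 to 3055, with *Atoh1*, *Sox2*, *Krt20* and *Cck* at 0 in at least 1 library. Of the 7 Merkel cell markers tested, 6 rose and *Syp* did not pass. *Atoh1*, at 0 in every labelled knockout, and *Cck* were too low to be tested. Endothelial and leukocyte markers (8 genes each) overlapped between groups, with sums of 374 to 798 against 440 to 605 and of 746 to 1980 against 1235 to 1609, and *Cd3e* and *Cd207* at 0 in at least 1 library. The part of these other cells in the results was not tested, and in sorted cell pools fewer cells of a type and less RNA per cell cannot be told apart.

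DNA repair and checkpoint genes were lower in the labelled knockouts or did not pass the test, and none passed as higher. By limma on log2(normalized count + 1), with p-values adjusted over all 23006 genes tested, 18 of the 30 genes fell, 0 rose and 12 did not pass. At an unadjusted p below 0.05, 19 were lower and 0 higher. Of all genes tested, 15.3% were called lower and 20.5% higher, 35.8% in either direction. The fall was at least 2-fold for 13 of the 30, against 8.05% of all genes, and at least 4-fold for 4, against 2.11%. The steepest were *Rad51ap1*, *Brip1*, *Exo1* and *Rad54b*. In 20 of the 30 genes every labelled knockout lay below every control, as for 23% of all genes, and in 1 (*Msh6*) every labelled knockout lay above, as for 26% of all genes. The median log2 change was −0.90, against 0.01 for all genes tested. Log2 changes below are labelled knockout minus control on that scale, ± SE, values are normalized counts, and the pseudocount understates the change of genes with low counts. Quantile normalization shifted the log2 changes of all genes by a median of −0.23 and called 4177 genes higher and 4974 lower, where the deposited scaling gave 4726 and 3516. It called 20 of the 30 genes lower and 0 higher. Leaving out 1 library at a time gave between 14 and 21 lower.

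**Figure D2:**
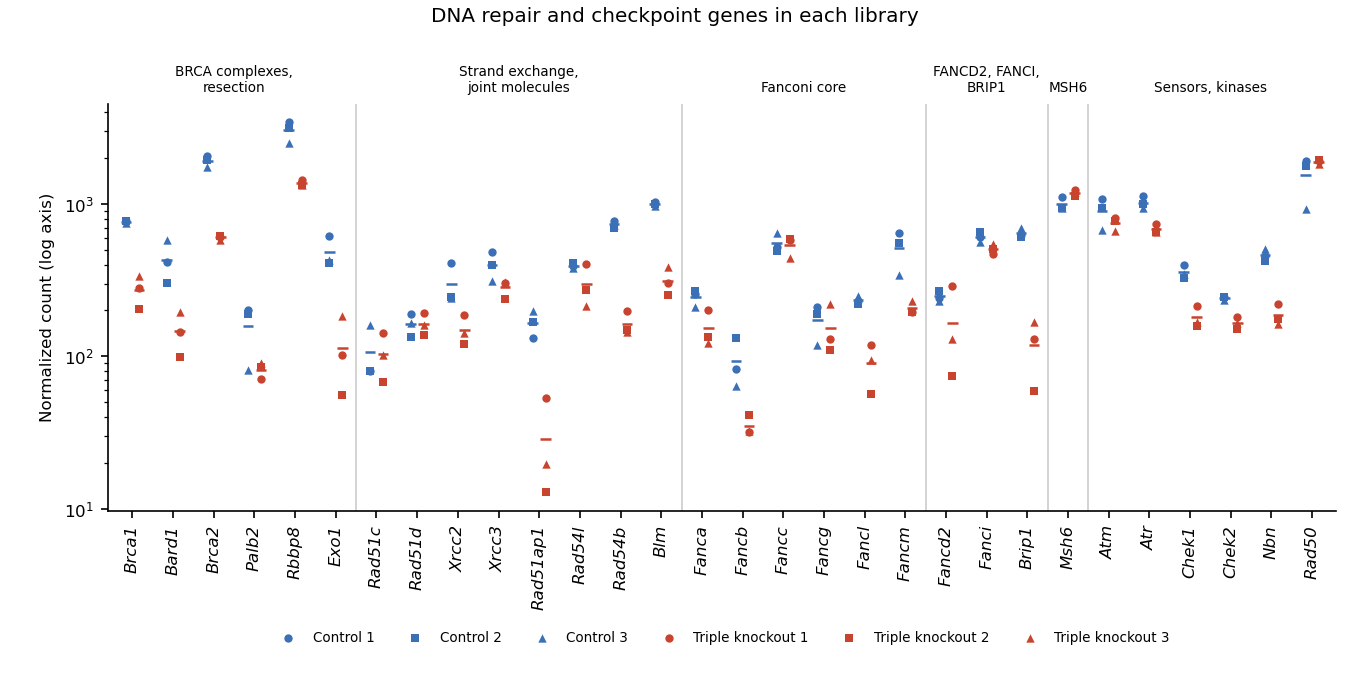
Normalized count (log axis) of each of the 30 genes in each library, grouped by role; blue marks are controls, red marks labelled knockouts, the shape gives the replicate number and bars give group means. The group means of *Rad51ap1* and *Brip1* lie furthest apart as a ratio, whereas *Rad51d* and *Fancc* overlap.

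Of the 6 genes of the BRCA complexes and of end resection 5 fell and 1 did not pass, and the median log2 change was −1.53. BRCA1 and its partner BARD1 form a ubiquitin ligase that acts at breaks and stalled forks. *Brca1* (chromosome 11, 101488764 to 101551955 in GRCm38, as are all coordinates here) stood at 769, 776 and 754 in controls and at 281, 205 and 338 in labelled knockouts. The controls lay within a narrow band and all labelled knockouts lay far below it. This was a log2 change of −1.51 ± 0.20 (limma adjusted p = 0.00043). *Bard1* (chromosome 1, 71027498 to 71103146) stood at 414, 302 and 579 against 145, 98.5 and 194, with more spread among controls but no overlap (−1.56 ± 0.31, adjusted p = 0.00362). BRCA2 acts on resected DNA and prepares it for strand exchange. *Brca2* (chromosome 5, 150522630 to 150570329) stood at 2055, 1960 and 1741 against 611, 617 and 585. Its labelled knockouts were nearly equal, and they averaged 31.5% of the control mean (−1.66 ± 0.13, adjusted p = 2.33e-05). PALB2 joins BRCA1 to BRCA2. *Palb2* (chromosome 7, 122107262 to 122132985) stood at 202, 188 and 80.7 against 70.5, 85.1 and 90.0. Control 3 lay among the labelled knockouts, and the gene did not pass (−0.83 ± 0.35, adjusted p = 0.0937), but did without control replicate 3 (−1.25, adjusted p = 0.00142).

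End resection is begun by CtIP, the product of *Rbbp8*, and extended by the exonuclease EXO1. *Rbbp8* (chromosome 18, 11633276 to 11745221) fell from 3460, 3179 and 2538 to 1434, 1343 and 1329, which is to 44.7% of the control mean (−1.15 ± 0.15, adjusted p = 0.000339). *Exo1* (chromosome 1, 175880581 to 175913489) fell from 616, 409 and 430 to 102, 55.7 and 184. The labelled knockouts differed among themselves by more than the controls did on the log scale, yet the highest of them lay below the lowest control (−2.22 ± 0.39, adjusted p = 0.00195).

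Of the 4 genes *Rad51c*, *Rad51d*, *Xrcc2* and *Xrcc3*, whose products assemble with one another and promote strand exchange, 1 passed. *Xrcc2* (chromosome 5, 25689812 to 25705825) fell, at 412, 244 and 243 against 187, 121 and 142 (−0.97 ± 0.27, adjusted p = 0.0192). Its call was lost without control replicate 1 (adjusted p = 0.0622), labelled knockout replicate 2 (0.0782) or labelled knockout replicate 3 (0.0622). *Rad51c* (chromosome 11, 87376645 to 87404954) stood at 80.1, 79.5 and 159 against 142, 68.2 and 102, with the groups interleaved (−0.01, 95% interval −0.82 to 0.79, adjusted p = 0.982). *Rad51d* (chromosome 11, 82876434 to 82890614) stood at 189, 134 and 165 against 194, 138 and 160 (0.01, interval −0.49 to 0.51, adjusted p = 0.98). Neither the interval of *Rad51c* nor that of *Rad51d* reaches a 2-fold change in either direction. *Xrcc3* (chromosome 12, 111803192 to 111813873) had all labelled knockouts below the lowest control, 1 of them by less than 1 normalized count, 305, 239 and 310 against 482, 401 and 310 (−0.47 ± 0.21, adjusted p = 0.117). It passed without control replicate 3 (−0.64, adjusted p = 0.0212), after quantile normalization (adjusted p = 0.0381) and with GC content and length regressed out (−0.96, adjusted p = 0.0113).

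Of the 4 further genes that act in strand invasion or on the joint molecules it forms, 3 passed. RAD51AP1 stimulates strand invasion. *Rad51ap1* (chromosome 6, 126923050 to 126939587) had the steepest fall of the 30, from 133, 168 and 198 to 53.6, 12.8 and 19.6 (−2.73 ± 0.46, adjusted p = 0.00166). Labelled knockout 1 was the highest of its group, but lay below every control. The translocases RAD54L and RAD54B remodel DNA during strand invasion. *Rad54b* (chromosome 4, 11558922 to 11615805) fell from 779, 699 and 726 to 197, 149 and 144 (−2.18 ± 0.18, adjusted p = 3.07e-05). *Rad54l* (chromosome 4, 116094264 to 116123690) stood at 389, 408 and 381 against 405, 271 and 215, with labelled knockout 1 at the control level (−0.45 ± 0.23, adjusted p = 0.166). It passed without labelled knockout replicate 1 (−0.70, adjusted p = 0.0374), but the change was −0.24 without labelled knockout replicate 3 (adjusted p = 0.476). *Blm* (chromosome 7, 80454733 to 80535119), the Bloom syndrome helicase that unwinds joint molecules, fell from 1040, 1001 and 972 to 304, 252 and 384 (−1.70 ± 0.18, adjusted p = 0.000124). A limit applies to *Rad54b*, because 35.8% of its exon bases are shared with *Fsbp* on the same strand, so its values are uncertain where the counting could divide reads between these genes.

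The Fanconi anemia core complex is the ubiquitin ligase that recognises crosslinks, with FANCL as its catalytic subunit and FANCM as the helicase-like protein that anchors it to DNA. Of its 6 genes, 4 fell and 2 did not pass (median −0.98). *Fancl* (chromosome 11, 26386135 to 26471876) fell from 232, 219 and 249 to 118, 56.7 and 95.1 (−1.43 ± 0.28, adjusted p = 0.0035). *Fancm* (chromosome 12, 65075603 to 65132058) fell from 648, 554 and 340 to 196, 196 and 232, with control 3 the nearest to the labelled knockouts (−1.25 ± 0.25, adjusted p = 0.00376). *Fancb* (chromosome X, 164980592 to 164997272), a scaffold subunit, fell from 83.1, 132 and 63.9 to 32.0, 41.1 and 32.1 (−1.33 ± 0.31, adjusted p = 0.00961). Sex was inferred for each library from *Xist* against Y-linked genes. Controls 1 and 3 were called male and control 2 female, and labelled knockouts 1 and 3 female and labelled knockout 2 male. Sex was thus not balanced between the groups. With this inferred sex in the fit, the fall of *Fancb* was −1.41 (adjusted p = 0.0161). *Fanca* (chromosome 8, 123268300 to 123318576) was close to the threshold, at 257, 267 and 210 against 203, 133 and 122 (−0.71 ± 0.24, adjusted p = 0.0447). Its call was lost without control replicate 1 (adjusted p = 0.112), control replicate 2 (0.12), labelled knockout replicate 2 (0.141) or labelled knockout replicate 3 (0.154). It was also lost with a sex term (0.0524), with no filter on low values (0.0573) and with neither trend nor robust settings (0.0698). *Fancc* (chromosome 13, 63285043 to 63497278) stood at 524, 490 and 641 against 582, 589 and 445 (−0.04, interval −0.44 to 0.37, adjusted p = 0.898). *Fancg* (chromosome 4, 43002343 to 43010506) stood at 211, 189 and 119 against 130, 110 and 221 (−0.19, interval −0.90 to 0.52, adjusted p = 0.679). In both genes the groups were interleaved.

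FANCD2 and FANCI are the pair that the core complex ubiquitinates, and BRIP1 (FANCJ) is a helicase that binds BRCA1. *Brip1* (chromosome 11, 86058138 to 86201193) fell from 629, 610 and 699 to 131, 59.4 and 168, which is to 18.5% of the control mean (−2.55 ± 0.34, adjusted p = 0.000445). *Fanci* (chromosome 7, 79391929 to 79450264) stood at 604, 653 and 565 against 467, 509 and 550 (−0.26 ± 0.15, adjusted p = 0.219). Its groups did not overlap, but labelled knockout 3 lay next to control 3. *Fancd2* (chromosome 6, 113531682 to 113597017) stood at 242, 270 and 232 against 292, 74.0 and 130 (−0.81 ± 0.42, adjusted p = 0.165). Here labelled knockout 1 was above every control while the other labelled knockouts were below, and without labelled knockout replicate 1 the gene passed (−1.33, adjusted p = 0.012), whereas without labelled knockout replicate 2 the change was −0.35 (adjusted p = 0.499). The log2 ratio of *Brip1* to *Fanci* differed by −2.29 (labelled knockout minus control), with no overlap between the groups (exact two-sided permutation p = 0.1). With 3 libraries a group no smaller p is possible, and that p is shared by all 4 pairs compared, which were chosen after the values were seen.

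Of the 6 sensors and kinases of the checkpoint 4 fell and 2 did not pass (median −0.56). *Nbn*, *Mre11a* and *Rad50* encode the complex that binds broken ends and activates ATM, and not all of its subunits passed. *Nbn* (chromosome 4, 15957925 to 15992589) fell from 453, 425 and 509 to 221, 177 and 163 (−1.31 ± 0.19, adjusted p = 0.000659). *Mre11a*, the nuclease subunit, fell from 688 ± 126 to 394 ± 38.5 (SD, n = 3; −0.79 ± 0.18, adjusted p = 0.0076). *Rad50* (chromosome 11, 53649519 to 53707319) stood at 1933, 1769 and 927 against 1917, 1955 and 1833, with control 3 alone low (0.37 ± 0.25, adjusted p = 0.282). The change was 0.04 without control replicate 3 and 0.57 without control replicate 1, and passed in neither case. The log2 ratio of *Nbn* to *Rad50* was −2.09, −2.06 and −0.86 in controls and −3.11, −3.46 and −3.48 in labelled knockouts, without overlap (exact permutation p = 0.1). The ratio of *Mre11a* to *Rad50* was −1.58, −1.58 and −0.16 in controls and −2.23, −2.21 and −2.38 in labelled knockouts, again without overlap (exact permutation p = 0.1). Its mean difference of −1.16 became −0.69 without control replicate 3.

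Each kinase and its effector is described in turn. *Atr* (chromosome 9, 95857597 to 95951781), the kinase of stalled forks, fell from 1122, 995 and 938 to 745, 656 and 654 (−0.57 ± 0.14, adjusted p = 0.0127). The call was lost narrowly without control replicate 1 (adjusted p = 0.051), labelled knockout replicate 2 (0.0556) or labelled knockout replicate 3 (0.0524). *Atm* (chromosome 9, 53439149 to 53536740), the kinase of broken ends, stood at 1074, 936 and 673 against 815, 777 and 665, with overlap (−0.23 ± 0.19, adjusted p = 0.395), and passed without control replicate 3 (−0.42, adjusted p = 0.0439), but was −0.08 without control replicate 1 (adjusted p = 0.792). The log2 ratio of *Atr* to *Atm* differed by −0.34 (exact permutation p = 0.1), and by −0.21 without control replicate 3. *Chek1* (chromosome 9, 36708482 to 36727065), the effector of ATR, fell from 399, 329 and 348 to 215, 159 and 168 (−0.99 ± 0.19, adjusted p = 0.00352). *Chek2* (chromosome 5, 110839979 to 110874145), the effector of ATM, stood at 245, 246 and 234 against 182, 150 and 165 (−0.55 ± 0.18, adjusted p = 0.0401). The groups of *Chek2* did not overlap, but its call was lost when any single library other than control 3 was left out (adjusted p from 0.0626 to 0.137). It was also lost with a sex term (0.0571), with GC content and length regressed out (0.0609) and with no filter on low values (0.072).

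*Msh6* (chromosome 17, 87975062 to 87990892), which recognises mismatched bases, was the single gene of the 30 with every labelled knockout above every control. It stood at 1105, 944 and 946 against 1241, 1128 and 1196, and did not pass (0.25 ± 0.13, interval −0.05 to 0.56, adjusted p = 0.175).

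**Figure D3:**
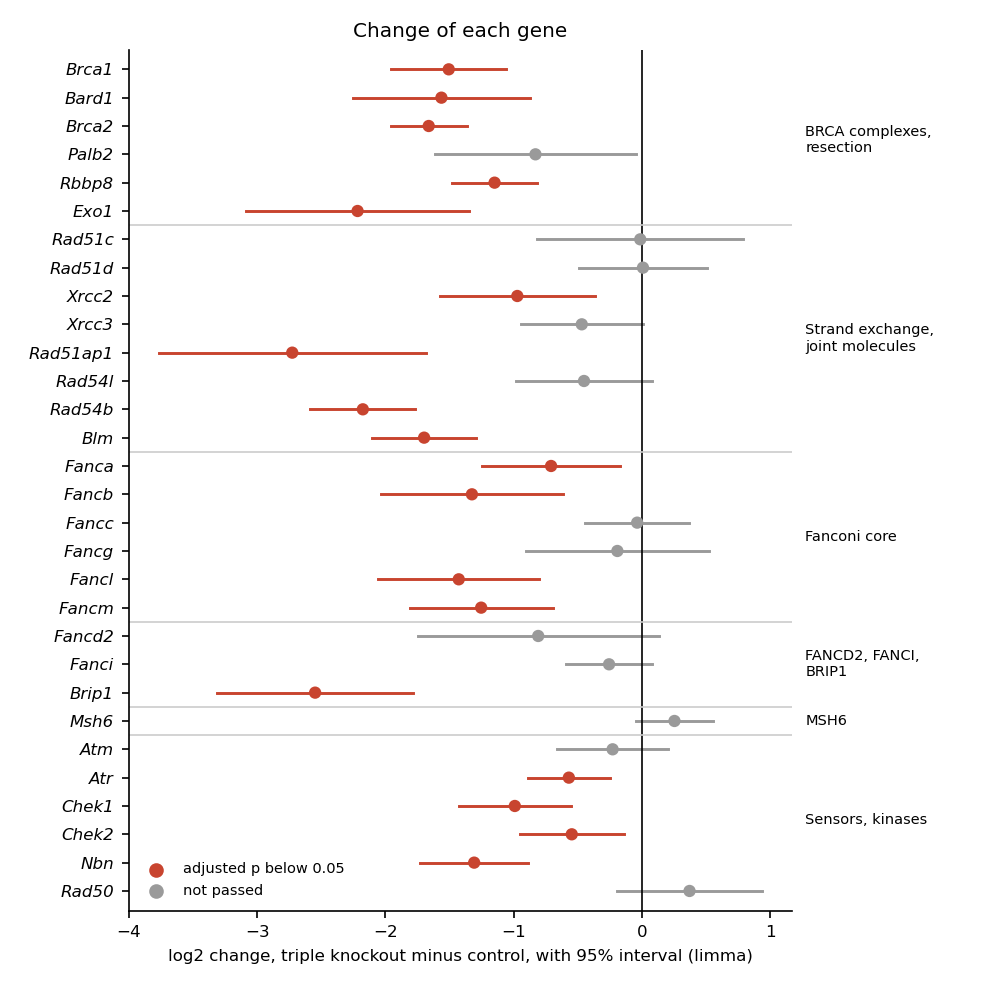
Log2 change of each of the 30 genes, labelled knockout minus control, with the limma 95% interval; red marks passed at an adjusted p below 0.05 and grey marks did not. The changes run from −2.73 in *Rad51ap1* to 0.37 in *Rad50*.

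Libraries within a group also differed. Labelled knockout 2 had the lowest of the 3 labelled knockout values for 17 of the 30 genes, and labelled knockout 1 the highest for 16. Among the controls, control 3 had the lowest value for 18 and control 1 the highest for 16. The summed normalized counts of the 30 genes came to 20782, 18977 and 16969 in controls and to 11918, 10426 and 11035 in labelled knockouts. Control 3 was also the library with the highest share of ribosomal RNA and the highest sum of fibroblast markers given above, and the part of these in its low values was not tested.

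The levels of the genes that fell and of those that did not pass covered similar ranges. The 18 that fell had control means from 93.0 to 3059 (median 473), and the 12 from 106 to 1543 (median 395). Their longest annotated transcripts had a median GC content of 44.4% and 47.3% respectively, against 47.9% for all genes tested. Regressing GC content and length out of each library kept 28 of 30 results on their side of the threshold. Antisense or neighbouring genes cover at least 10% of the exon bases of *Fancc* (*Gm16133*), *Fanci* (*Polg*), *Rad54l* (*Lrrc41*), *Fancl* (*Vrk2*) and *Fanca* (*Zfp276*), and reads of such pairs could be mixed if the counting ignored strand.

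Other genes of DNA repair were counted in the same way. Of 120 further repair and checkpoint genes, 52 fell, 6 rose and 62 did not pass, and the median log2 change was −0.42 (11 rose without control replicate 3). In the homologous recombination list 16 of 29 fell and 0 rose (2 higher at an unadjusted p below 0.05, and 2 rose without control replicate 3 or with GC content and length regressed out). *Rpa2*, a subunit of the protein that coats single-stranded DNA, fell from 529 ± 30.3 to 138 ± 17.3 (−1.93 ± 0.18), and *Gen1*, a resolvase of crossed DNA strands, from 695 ± 173 to 220 ± 33.3 (−1.64 ± 0.22).

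Of 22 further checkpoint genes 16 fell and 0 rose, with 0 higher at an unadjusted p below 0.05 and a median of −0.80. *Mre11a*, which fell, is counted both here and in the homologous recombination list, and without repeat among the 120 genes. *Clspn*, the adaptor through which ATR activates CHEK1, fell from 1016 ± 237 to 352 ± 28.04 (−1.50 ± 0.20, adjusted p = 0.000426). *Etaa1*, an activator of ATR, fell from 400 ± 48.1 to 123 ± 17.6 (−1.69 ± 0.20) and *Rnf168*, a ubiquitin ligase at breaks, from 828 ± 63.8 to 311 ± 45.7 (−1.41 ± 0.17). *Cdc25c*, a phosphatase that checkpoint kinases inhibit, fell from 568 ± 76.0 to 130 ± 25.5 (−2.13 ± 0.21). *Trp53bp1*, which restrains resection, stood at 1761 ± 333 and 2003 ± 191 and did not pass (0.20 ± 0.16, adjusted p = 0.382).

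The remaining pathways were counted alike. Of 15 further Fanconi genes 5 fell and 2 rose (3 fell without control replicate 1 or labelled knockout replicate 2), with a median of −0.38. After quantile normalization 8 fell and 2 rose (median −0.60), and with GC content and length regressed out 8 fell and 1 rose (median −0.74). *Usp1*, which removes ubiquitin from FANCD2, fell from 1354 ± 256 to 548 ± 72.3 (−1.29 ± 0.18) and *Ube2t*, the conjugating enzyme of FANCL, from 415 ± 28.8 to 207 ± 10.6 (−0.99 ± 0.16). The translesion synthesis genes *Rev1* and *Mad2l2* rose, from 617 ± 71.4 to 1003 ± 100 (0.70 ± 0.15) and from 187 ± 73.9 to 380 ± 19.6 (1.08 ± 0.26). *Rev3l*, also of translesion synthesis, had every labelled knockout below every control, at 6760 ± 1229 against 5220 ± 526. It did not pass (−0.36 ± 0.15, limma adjusted p = 0.0955). Of 6 other mismatch repair genes 1 fell, *Msh3* (−1.43 ± 0.21), and 0 rose, also at an unadjusted p below 0.05. Without labelled knockout replicate 2, or after quantile normalization, 2 fell.

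Of 11 end joining genes 2 fell and 2 rose, with a median of 0.05. *Polq*, the polymerase of microhomology-mediated joining, fell from 468 ± 197 to 120 ± 47.0 (−1.93 ± 0.41). *Dclre1c* (Artemis nuclease) rose from 729 ± 27.0 to 1160 ± 100 (0.67 ± 0.14) and the ligase gene *Lig4* from 27.5 ± 2.43 to 60.6 ± 7.19 (1.11 ± 0.26). In the kinase complex that holds the ends, *Xrcc6* fell from 291 ± 50.5 to 183 ± 17.7 (−0.66 ± 0.20, limma adjusted p = 0.0299). *Prkdc* and *Xrcc5*, of the same complex, did not pass, at 743 ± 125 and 763 ± 57.0 and at 651 ± 89.0 and 672 ± 65.2. Without control replicate 1 or 2, or without any of the labelled knockouts, 1 end joining gene fell. Of 19 base excision genes 6 fell and 1 rose (0 to 3 rose when single libraries were left out, 0 without labelled knockout replicate 3, 2 without control replicate 2 or labelled knockout replicate 1 and 3 without control replicate 3). The glycosylase gene *Neil3* fell from 602 ± 185 to 143 ± 50.3 (−2.06 ± 0.31). Of 19 nucleotide excision genes 7 fell and 1 rose. *Gtf2h1*, of the transcription and repair factor TFIIH, fell from 773 ± 55.1 to 424 ± 13.96 (−0.86 ± 0.14). Without control replicate 1 or labelled knockout replicate 3, 4 fell, without labelled knockout replicate 1 or 2, 3 fell, and the count that rose was 0 without control replicate 2 or any labelled knockout and 2 without control replicate 3.

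**Figure D4:**
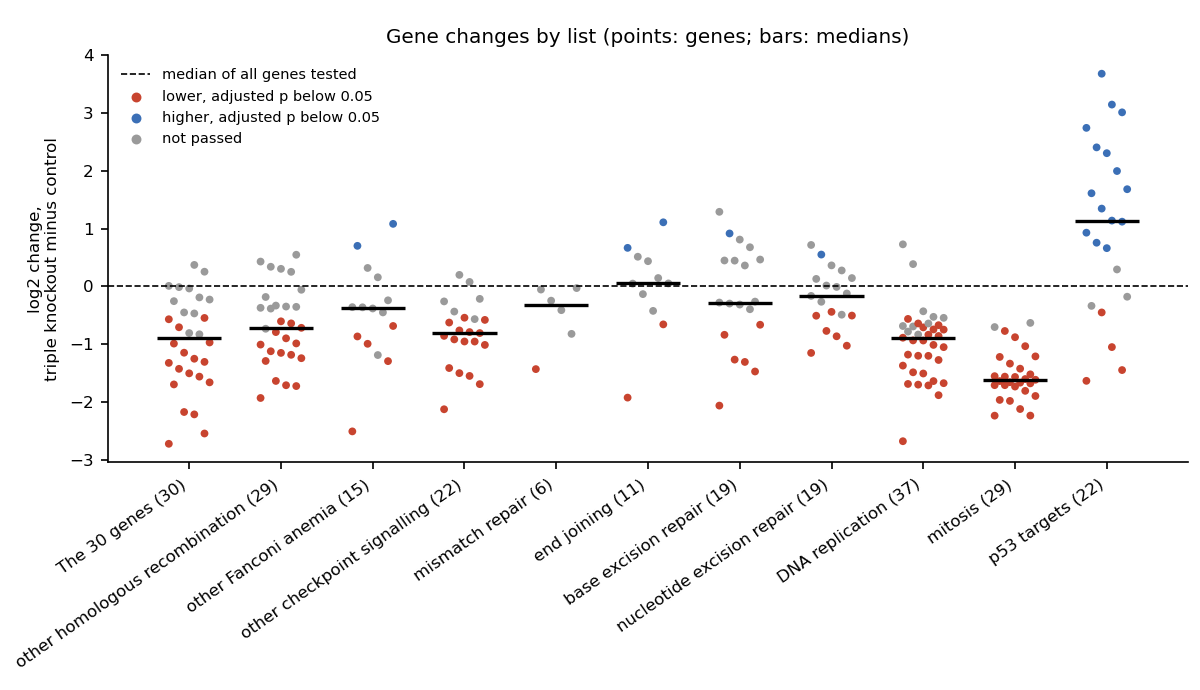
Log2 change (labelled knockout minus control) of every tested gene of each list; points are genes, coloured by call, bars are list medians, the dashed line is the median of all genes tested and the numbers in brackets are genes. Points of the mitosis list all lie below 0, and most p53 targets lie above it.

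Genes of DNA replication and of mitosis were lower in the same libraries. Of 37 replication genes 27 fell and 0 rose (2 rose without control replicate 1), with 0 higher at an unadjusted p below 0.05, and a median of −0.89, beside −0.90 for the 30 genes. *Mcm6*, a subunit of the replicative helicase, fell from 1515 ± 115 to 410 ± 41.7 (−1.88 ± 0.15) and *Gins1*, which joins that helicase at the fork, from 163 ± 10.4 to 24.7 ± 2.90 (−2.68 ± 0.23). Of 29 mitosis genes 27 fell and 0 rose, with 0 higher at an unadjusted p below 0.05 and a median of −1.62. *Mki67*, the gene of the proliferation antigen Ki-67, fell from 17333 ± 1750 to 5388 ± 1355 (−1.71 ± 0.18). Summed mitosis counts came to 73408, 60657 and 55833 in controls and to 20492, 16705 and 25826 in labelled knockouts. Within the labelled knockouts they were lowest in replicate 2, where 17 of the 30 genes were lowest too. They were highest in replicate 3, whereas replicate 1 was the highest for 16 of the 30 genes. The share of dividing cells was not measured, and its part in the lower repair genes was not tested.

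Targets of p53, the transcription factor that the ATM and ATR kinases activate, went mostly the other way. Of 22 p53 targets 15 rose, 4 fell and 3 did not pass, and the median log2 change was 1.13. *Cdkn1a*, the inhibitor p21 that halts the cell cycle, rose from 4699 ± 541 to 23171 ± 805 (2.31 ± 0.12, adjusted p = 3.34e-06). *Ccng1* rose from 1095 ± 418 to 8474 ± 338 (3.01 ± 0.23) and the apoptosis gene *Pmaip1* from 534 ± 41.3 to 3605 ± 498 (2.75 ± 0.15), while *Sesn1* fell from 1484 ± 303 to 491 ± 183 (−1.64 ± 0.25). The 30 genes and these lists were compared in the same 6 libraries, so the values stand side by side and no list was tested against another.

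**Figure D5:**
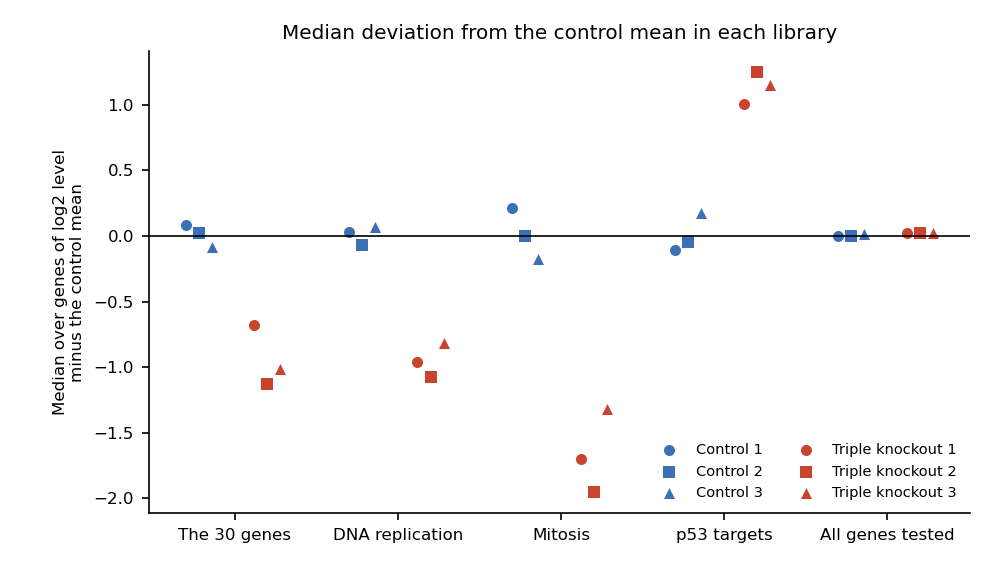
Median over the genes of each list of the log2(normalized count + 1) level minus the control mean, in each library; blue marks are controls, red marks labelled knockouts, and the shape gives the replicate number. The 30 genes stand at −0.68, −1.13 and −1.01 in labelled knockouts 1, 2 and 3, and all genes tested stand at 0.02 to 0.03.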

How the data were processed

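RNA-seq values of 6 libraries (3 labelled Control, 3 labelled triple knockout) were taken as the authors deposited them, in a table of normalized counts, a signal with no raw counts beside it. The submitters' processing notes name kallisto 0.42.5 and DESeq2; their roles, the genome build, annotation and strand setting are not given in the sources used here. Gene coordinates were identical to GENCODE M21 (GRCm38) for 98.0% of the 38243 gene IDs shared with it. Low values were not whole multiples of 1 read (25.6% to 41.1% within 0.01 read), so no count model was used.

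Genes with a mean of at least 10 (23006) were fitted on log2(normalized count + 1) with limma 3.58.1 in R 4.3.3 (empirical Bayes with trend and robust settings), with Benjamini-Hochberg adjustment over all of them and a threshold of 0.05. Trimmed-mean scaling factors, for 1 alternative, were computed from the normalized values. The model was run on simulated data with independent normal noise and far fewer changed genes than were called here. That run cannot show how well the calls hold in these libraries. Ratios of gene pairs were compared with an exact two-sided permutation test. Alternatives changed the pseudocount, filter, scaling, variance model, replicate block, sex term and GC content and length, and left out each library.

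All 30 genes are named, with the 3 targeted genes. From each other gene list except the cell type markers, named genes come from the 6 called genes with the smallest p and the 4 highest-expressed that did not pass; *Mre11a* and *Sesn1* fall outside this rule and were chosen after their values were seen, as were the markers named. The ratios without single libraries and the fibroblast sum without *Postn* were added after seeing the data. The members and lists were chosen with earlier results of these data known. Some genes of the other lists are not reported here by name.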

Additional observations from a re-analysis of the deposited data

How the results depend on the processing

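Of the 18 genes called lower, 14 were called in all 17 alternatives, and the exceptions were *Atr*, *Chek2*, *Fanca* and *Xrcc2*; 7 of the 12 that did not pass were called in none. The count of genes called lower ran from 14 to 21 when single libraries were left out, and the median log2 change from −1.13 to −0.77. Quantile normalization gave a median of −1.12 for the 30 genes, −1.07 for DNA replication and −0.62 for the 120 other repair and checkpoint genes. Removal of GC content and length gave −1.09 for DNA replication and −0.60 for the 120 genes, with or without the replicate block. With single libraries left out, the mitosis median ran from −1.81 to −1.48, the p53 target median from 0.98 to 1.28, the replication genes called higher from 0 to 2 and the others of the 120 called higher from 4 to 11. The end joining median of 0.05 changed sign under quantile normalization (−0.038) and ran from −0.061 (without control replicate 2) to 0.18 with single libraries left out. The cause was not tested. Libraries with the same replicate number did not deviate together (correlations 0.06, −0.02 and 0.02). With 3 libraries a group, these values cannot decide whether the numbers pair libraries. With the replicate block 17 of the 30 genes were called lower, *Chek2* being lost (adjusted p = 0.0704 by limma). Depth is not known as counts, so no counting interval is given.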
